A study of Homo sapiens with 2 samples.

Results

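The nuclear genes of respiratory complexes II to V, with the factors that assemble them, were examined after 6 h of the solvent DMSO or 5 µM of the Gamitrinib G-TPP in U251, a long-established line of human glioblastoma. They were found by symbol: the probe set's only symbol begins with SDHA, SDHB, SDHC, SDHD, UQCR, UQCC, ATP5 or ATPAF, or with COX or COA and a digit, or is CYC1, CYCS, BCS1L, SURF1, SCO1 or SCO2. This gave 80 probe sets for 76 of the 18417 genes named on the array, namely 44 subunits or subunit isoforms, 28 assembly factors, 2 pseudogenes, the electron carrier cytochrome c and the inhibitor of ATP synthase. G-TPP joins a geldanamycin-type inhibitor of Hsp90 to triphenylphosphonium, a cation that carries it into mitochondria, and the study asked how genes for mitochondria respond to it. Both conditions used the same line in high-glucose medium, there was 1 array for each, and neither inhibition of the chaperones nor respiration was measured here.

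Complex II, succinate dehydrogenase, passes electrons from succinate to coenzyme Q, complex III hands them on to cytochrome c, and complex IV, cytochrome c oxidase, gives them to oxygen. Complex V, the ATP synthase, uses the proton gradient that the chain builds. Mitochondrial DNA encodes core subunits of complexes III, IV and V, and all the genes described here are nuclear, as are all genes of complex II. Assembly factors insert haem, copper, flavin and iron-sulfur centres, or hold subunits until they join, and are not part of the finished complex.

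The promoters of 8 members are shown first, because their letters and their head-to-head neighbours are set beside the values further on. The stretches were taken from RefSeq windows of build GRCh38.p14, on the strand of the member and 5′ to 3′. Capitals mark GCGCATGC, the core bound by the nuclear respiratory factor NRF-1, CCGGAAGT, an ETS site of the kind bound by GABP, and GCGCAGGC, which is 1 letter off the NRF-1 core, each on either strand. SDHA (chr5:218154-218319, plus strand), BCS1L (chr2:218659624-218659682, plus strand), SCO1 (chr17:10697534-10697593, minus strand), ATP5F1C (chr10:7787994-7788176, plus strand) and SDHAF2 (chr11:61429976-61430123, plus strand) are each shown from the start of the neighbour to their own start. SDHD (chr11:112086673-112086872, plus strand), COX18 (chr4:73069717-73069866, minus strand) and COX5B (chr2:97645912-97646061, plus strand) are shown for the bases just before their starts.
SDHA: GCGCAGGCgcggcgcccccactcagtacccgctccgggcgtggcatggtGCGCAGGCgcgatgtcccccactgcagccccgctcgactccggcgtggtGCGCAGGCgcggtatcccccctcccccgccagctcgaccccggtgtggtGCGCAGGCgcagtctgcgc
BCS1L: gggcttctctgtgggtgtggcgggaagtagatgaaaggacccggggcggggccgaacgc
SCO1: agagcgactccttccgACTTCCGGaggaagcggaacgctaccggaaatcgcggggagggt
ATP5F1C: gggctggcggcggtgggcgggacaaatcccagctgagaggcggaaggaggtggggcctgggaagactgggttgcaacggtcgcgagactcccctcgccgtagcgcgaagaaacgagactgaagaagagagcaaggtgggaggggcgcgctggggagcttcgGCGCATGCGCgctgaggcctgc
SDHAF2: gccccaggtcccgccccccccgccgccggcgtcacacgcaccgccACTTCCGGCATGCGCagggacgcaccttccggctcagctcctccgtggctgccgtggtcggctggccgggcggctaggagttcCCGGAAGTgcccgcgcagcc
SDHD: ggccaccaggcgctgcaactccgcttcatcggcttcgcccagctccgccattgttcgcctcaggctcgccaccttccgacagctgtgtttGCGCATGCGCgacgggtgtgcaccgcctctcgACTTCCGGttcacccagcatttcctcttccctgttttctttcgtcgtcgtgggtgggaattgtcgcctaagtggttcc
COX18: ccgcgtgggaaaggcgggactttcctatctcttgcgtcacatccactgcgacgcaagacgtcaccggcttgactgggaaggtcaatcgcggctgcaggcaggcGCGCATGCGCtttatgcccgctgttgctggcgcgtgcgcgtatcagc
COX5B: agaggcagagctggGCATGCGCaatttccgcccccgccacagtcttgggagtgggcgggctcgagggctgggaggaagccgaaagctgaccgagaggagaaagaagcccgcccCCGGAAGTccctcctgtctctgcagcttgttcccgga

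The brightness filter, an intensity of 239.2 in the brighter array, left 67 of the 76 members and 11091 genes in all, which are called kept. Below it lay UQCRH, SDHAF4, the pseudogene UQCRBP1, the ATP5MG copy ATP5MGL and the tissue isoforms COX4I2, COX6B2, COX7A1, COX7B2 and COX8C. Values are log2 of the G-TPP intensity minus log2 of the DMSO intensity, and with 1 array per condition they carry no error and no test. Among 328 genes with a pair of kept probe sets, the spread within pairs came to a standard deviation of 0.17 for each probe set, and 31 of the 67 members lay within that distance of 0. Variation from culture to culture is not in this scale and was not measured. Of the fixed markers of glioma cells VIM and CD44 were bright, SOX2 was 2.72-fold and NES 1.42-fold lower with G-TPP, SLC1A3 was 1.56-fold higher, GFAP stood at 245.2 and 231.5, just around the filter, and S100B lay under it. Of the markers of other cells on the array 3 of 8 muscle, 1 of 3 neuronal, 0 of 6 germ cell and 0 of 2 immune genes were kept.

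As a group the members lay low by a small margin and almost none lay high. The median log2 difference of the 67 kept members was -0.15, against -0.04 over all kept genes, and 53 of the 67 were below 0, which is 79.1% against 55.9% of all kept genes. In such bulk RNA, less of a transcript per cell and fewer cells that carry it cannot be told apart. No member was 2-fold apart in either direction, whereas 2.8% of all kept genes were at least 2-fold higher and 0.55% at least 2-fold lower. Smaller sizes were counted from a log2 difference of 0.32 in either direction, which is called the mark. Past the mark on the lower side were 14 members, or 20.9%, against 13.4% of all kept genes. Among the 14, UQCRB and ATP5MC3 passed the filter through the DMSO array alone, where they were brighter. Past it on the higher side was 1 member, or 1.49%, against 16.4% of all kept genes. At 1.5-fold the members gave 4 lower, UQCRB among them, and 0 higher, where 3.23% and 7.37% of all kept genes passed. The members spanned -0.70 to 0.38 with a standard deviation across genes of 0.22, against 0.43 over all kept genes.

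**Figure D1:**
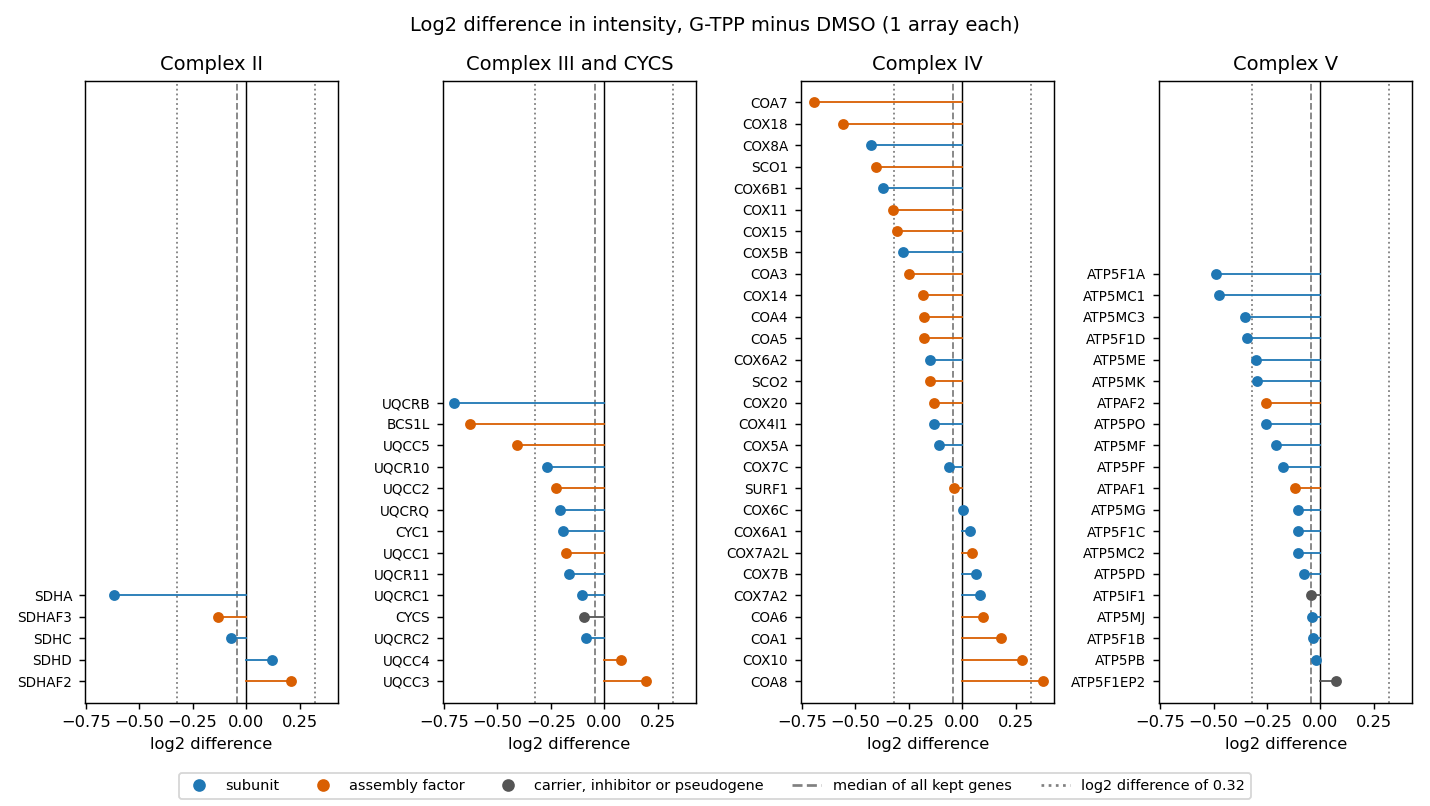
Log2 difference in intensity (G-TPP minus DMSO, 1 array each) of the 67 kept members, by complex, in blue for subunits, orange for assembly factors and grey for the carrier, the inhibitor and a pseudogene. The dashed line is the median of all kept genes (-0.04) and dotted lines mark differences of 0.32 to either side; 14 members lie left of the left dotted line and 1, COA8, right of the right one.

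**Figure D2:**
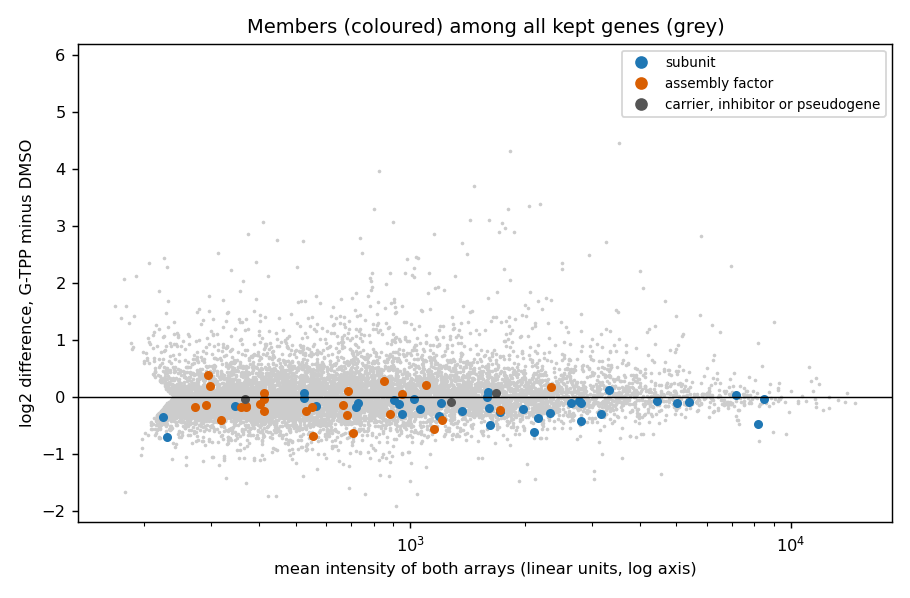
Log2 difference (G-TPP minus DMSO) against the mean intensity of both arrays (log axis) for all 11091 kept genes in grey and the 67 kept members in colour. Members occupy mean intensities from 223.9 to 8501 and stay between -0.70 and 0.38, while grey points reach 4.46.

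Subunits and assembly factors had like medians but differed in spread. The 37 kept subunits had a median of -0.15 with 32 below 0 (86.5%), and ranged from -0.70 to 0.12. The 27 kept assembly factors had a median of -0.18 with 19 below 0 (70.4%), and ranged from -0.69 to 0.38. Of all kept genes 55.9% were below 0. The standard deviations across genes were 0.19 for subunits and 0.27 for assembly factors. Past the mark on the lower side were 8 of the 37 subunits (21.6%) and 6 of the 27 assembly factors (22.2%), against 13.4% of all kept genes. The 8 include UQCRB and ATP5MC3, kept through the DMSO array alone. The 1 member past it on the other side was an assembly factor (3.70% of these), where 16.4% of all kept genes passed. Whether the classes differ was not tested.

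**Figure D3:**
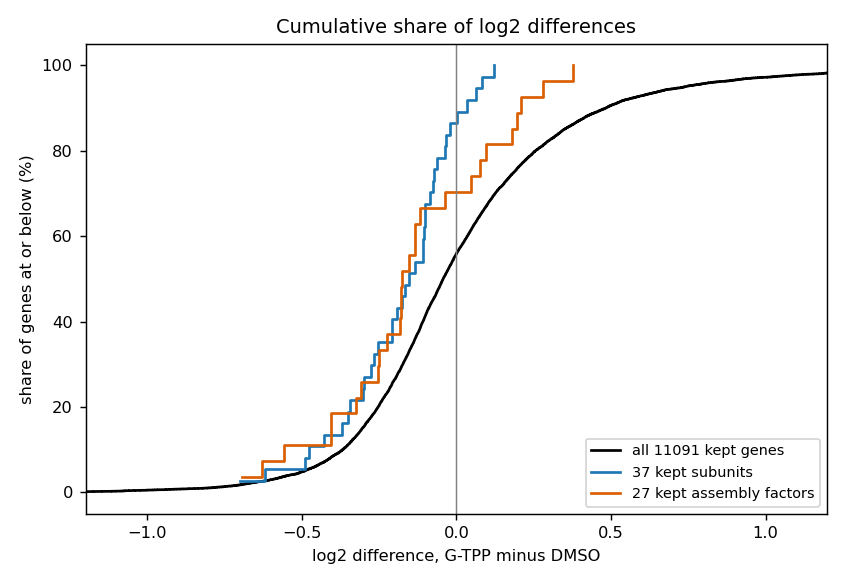
Cumulative share (%) of genes at or below a given log2 difference (G-TPP minus DMSO) for all 11091 kept genes (black), 37 kept subunits (blue) and 27 kept assembly factors (orange). The blue and orange curves lie left of the black one and end at 0.12 and 0.38, while the black curve runs on past the frame.

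Complex II was split between its catalytic subunit and the rest. SDHA, the flavoprotein that oxidises succinate, gave 2564 on the DMSO array and 1669 after G-TPP, 1.54-fold lower. A share of 2.74% of kept genes had a lower difference. SDHA has near-identical pseudogene copies, and the array carries a pair of probe sets that list SDHA together with SDHAP1, SDHAP2 and SDHAP3. These gave 1107 and 717.5 (1.54-fold lower) and 2027 and 1334 (1.52-fold lower), so all probe sets that list SDHA were low to a like degree, though signal of the gene and of its copies cannot be told apart.

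The membrane anchors of complex II did not share this. SDHC had 4542 with DMSO and 4321 with G-TPP by its brighter probe set, a log2 difference of -0.07, and 803.2 and 834.4 by its other one, a difference of 0.06. The anchor gene SDHD had 3190 and 3469, a difference of 0.12, and 0.14 by its other probe set. For both anchors the probe sets are numbered far apart, and which of them read the gene itself was not checked. Among assembly factors SDHAF2, which helps to attach flavin to SDHA, was 1.16-fold higher at 1022 and 1180. SDHAF3, which serves the iron-sulfur subunit, had 303.2 and 276.3, a difference of -0.13, and SDHAF4 was under the filter. The median over the 5 kept genes was -0.07, and -0.01 with the mean over the probe sets of a gene. The median turned to 0.02 under a stricter brightness filter, the 75th percentile in place of the median, and also without SDHA as a gene with copies. SDHB and UQCRFS1 were not analysed here.

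In complex III the members past the mark were UQCRB, BCS1L and UQCC5, all on the lower side. They were 3 of 14 kept members, or 21.4%, against 13.4% of all kept genes. UQCRB, a small subunit of complex III that lies beside the coenzyme Q site, had 283.3 with DMSO and 174.3 with G-TPP, 1.63-fold lower. The G-TPP value was barely above 173.6, the 95th percentile of olfactory receptor genes in that array, which marks signal with little or no expression, so this fold is drawn from a dim probe set that was kept through the DMSO array alone. It had the lowest value of the members as deposited (-0.70), but COA7 lay lower under lowess centring (-0.66 against -0.55), quantile normalization (-0.70 against -0.65) and a pseudocount of 16 (-0.67 against -0.65). Its processed copy UQCRBP1 stood at 204.4 and 207.3. The 7 kept subunits were all below 0, against 55.9% of all kept genes, with a median of -0.19.

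Among the other subunits of complex III the differences were small. UQCR10 had -0.27 (1879 and 1560). UQCRQ was 1.16-fold lower (1139 and 985.9), and CYC1, the cytochrome c1 that reduces cytochrome c, was 1.14-fold lower (1715 and 1503). UQCR11 had a difference of -0.17. The large core proteins UQCRC1 and UQCRC2 had -0.10 and -0.08. The hinge protein gene UQCRH, under the filter, had 0.09 from its own probe set, and a probe set that lists it with the copy UQCRHL and with GNA13 had 0.08. CYCS, cytochrome c itself, had 1325 and 1240, a difference of -0.10.

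BCS1L, the AAA protein that moves the Rieske iron-sulfur protein into complex III as the last step, was the lowest of its assembly factors. It had 857.5 with DMSO and 554.7 with G-TPP, 1.55-fold lower, and 97.4% of kept genes had a higher difference. UQCC5, another assembly factor of complex III, was 1.33-fold lower at 361.7 and 273.0. UQCC1 and UQCC2, which hold newly made cytochrome b, had -0.18 and -0.23. UQCC3, which acts with them on cytochrome b, had 277.9 and 318.6, 1.15-fold higher, and UQCC4 had 0.08. Of 6 assembly factors 4 were therefore below 0, or 66.7% against 55.9% of all kept genes. On the lower side 2 of the 6 were past the mark, or 33.3% against 13.4%.

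In complex IV the structural subunits differed one from another. COX8A, a small membrane subunit, had 3214 with DMSO and 2388 with G-TPP, 1.35-fold lower. COX6B1, which faces the intermembrane space, was 1.29-fold lower at 2433 and 1882, and COX5B, a zinc-binding subunit on the matrix side, was 1.21-fold lower at 2543 and 2099. COX4I1 and COX5A had -0.13 and -0.11, and COX7C had -0.06. COX6C, COX6A1, COX7B and COX7A2 lay at 0.00, 0.04, 0.06 and 0.08. The median over 11 kept subunits was -0.11. Below 0 were 7, or 63.6% against 55.9% of all kept genes. Past the mark on the lower side were 2, or 18.2% against 13.4%.

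Isoforms that belong to muscle, testis or lung were dim. COX4I2, the isoform of lung and hypoxic cells, had 204.2 and 175.0, a difference of -0.22, beside -0.13 for COX4I1. The muscle isoform COX7A1 had 107.0 and 110.3, a difference of 0.04, beside 0.08 for COX7A2. COX6B2, COX7B2 and COX8C, known from testis, had at most 99.0, and their differences of -0.15, 0.19 and -0.27 come from signal under the olfactory receptors' 95th percentile (172.6 with DMSO, 173.6 with G-TPP). The muscle isoform COX6A2 was kept, at 364.5 and 327.9, a difference of -0.15. Striated muscle markers summed over 8 genes to 2005 with DMSO and to 1786 with G-TPP, ranging from 67.4 to 635.4, and their part in the COX6A2 value was not tested.

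The assembly factors of complex IV ranged from -0.69 to 0.38 over 17 genes. COA7, a haem-binding protein of the intermembrane space needed for complex IV, had 685.7 with DMSO and 424.1 with G-TPP, 1.62-fold lower, with 98.1% of kept genes at a higher difference. COX18, which moves the tail of the mitochondrially made subunit COX2 across the inner membrane, had 1376 and 935.5, 1.47-fold lower. COX20, the chaperone of the same subunit, had -0.13.

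Genes of copper delivery lay on both sides of 0. SCO1, which passes copper to COX2, had 1379 and 1042, 1.32-fold lower. The gene COX11, which carries copper to the other copper site, had 756.6 and 604.6, a difference of -0.32, just past the mark. SCO2 had -0.15, inside the 0.17 spread of probe set pairs, and COA6, which works with both SCO proteins, had 0.10. A pair of probe sets listing COX17, the copper donor upstream of them, together with POPDC2 had -0.19 and -0.16. A probe set listing the copper factor COX19 together with ADAP1 had 0.69, with its DMSO value of 210.8 under the filter.

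The enzymes that make haem A for complex IV lay on opposite sides. COX10, which adds the farnesyl tail to haem, gave 769.1 on the DMSO array and 933.4 after G-TPP, 1.21-fold higher. COX15, which acts after it, had 977.7 and 790.1, 1.24-fold lower. Neither reached the mark, and whether they differ from each other was not tested.

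Factors of the early steps around the subunit COX1 stayed near the middle. COA3 and COX14, partners that stabilise new COX1, had -0.25 and -0.18, SURF1 had -0.04 and COA1 had 0.18. COA4 and COA5, small proteins of the intermembrane space, both had -0.18. COX7A2L, which joins complexes III and IV into supercomplexes and was counted here as an assembly factor, had 0.05. COA8, whose loss causes a deficiency of complex IV, was the 1 member past the mark on the higher side, with 255.2 and 331.2, or 1.30-fold. After setting the median of all kept genes to 0 a second member, COX10, passed the mark as well, and at the 75th percentile filter COA8 dropped out.

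In complex V all 16 kept subunits were below 0 in the deposited values, against 55.9% of all kept genes. Their median was -0.19 and their range from -0.49 to -0.02. Past the mark were 4, of which ATP5MC3 was kept through the DMSO array alone. With the median of all kept genes set to 0, ATP5F1B, ATP5MJ and ATP5PB lay above 0 by at most 0.02, as did ATP5PB under lowess centring. In the catalytic F1 head ATP5F1A, the alpha subunit, had 1891 with DMSO and 1347 with G-TPP, 1.40-fold lower, while its partner ATP5F1B, the beta subunit, had 8597 and 8404, a difference of -0.03. ATP5F1D had 1333 and 1050, 1.27-fold lower, and ATP5F1C had -0.11. The stalk proteins ATP5PO, ATP5PF, ATP5PD and ATP5PB had -0.25, -0.18, -0.08 and -0.02.

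The c-ring, which turns as protons pass, is built from 1 mature protein that 3 genes encode. ATP5MC1 had 9533 with DMSO and 6853 with G-TPP, 1.39-fold lower. ATP5MC3 had 196.9 with G-TPP and was 1.28-fold brighter with DMSO, with the filter between both values. ATP5MC2 had 1246 and 1160, 1.07-fold lower. ATP5MC1 and ATP5MC2 were thus lower in the G-TPP array by unequal amounts. ATP5MC3 was lower as well, but from a dim probe set that was kept through the DMSO array alone.

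Membrane subunits of complex V that hold its dimers together were low by a little. ATP5ME had 1050 and 852.6, 1.23-fold lower. ATP5MK had 3504 and 2850 by its brighter probe set, also 1.23-fold lower, and -0.21 by its other one. These probe sets are numbered far apart, and which of them reads the gene itself was not checked. ATP5MF, ATP5MG and ATP5MJ had -0.21, -0.11 and -0.04. ATP5IF1, the inhibitor that stops the enzyme from running backwards, had 373.5 and 362.3, a difference of -0.04. The F1 chaperones ATPAF1 and ATPAF2 had -0.12 and -0.26. The only kept complex V entry above 0 was ATP5F1EP2, a pseudogene of the epsilon subunit, at 0.07, and a probe set listing ATP5F1E with a readthrough transcript had -0.27.

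**Figure D4:**
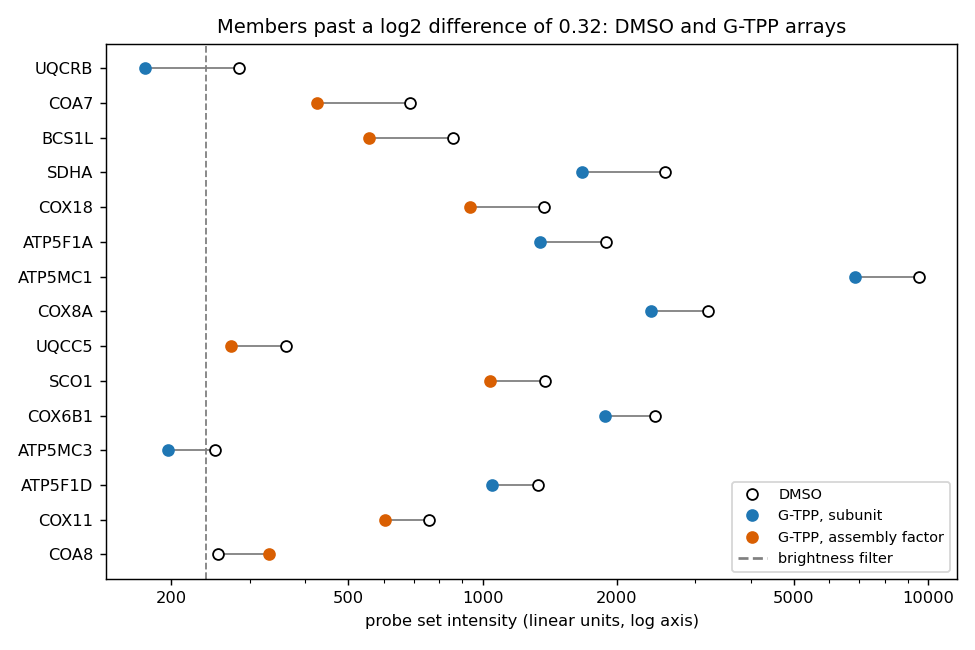
Intensity (log axis) of the 15 kept members past a log2 difference of 0.32, with DMSO as open circles and G-TPP as filled circles (blue for subunits, orange for assembly factors); the dashed line is the brightness filter of 239.2. In 14 rows the filled circle lies left of the open one, and for UQCRB and ATP5MC3 it lies left of the filter.

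Promoter letters were compared over 55 kept members that have a RefSeq window, 250 bases before to 50 bases after a start. The NRF-1 core GCGCATGC was found in 11 of the 55 (20.0%), in 6.24% of the 8946 kept genes with a window and in 3.05% of all 35116 windows. ETS letters CCGGAAGT were found in 16 members (29.1%), in 895 of the 8946 kept genes and in 4.14% of all windows. Together 23 members held one or the other and 4 held both: ATP5PF, COX5B, SDHAF2 and SDHD. In SDHAF2 the printed letters of both motifs share a base, and the palindrome GCGCATGCGC of ATP5F1C, SDHD and COX18 holds the core on both strands.

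The differences were set beside these letters. Members with the NRF-1 core had a median of -0.11 and those without it -0.14, and with and without ETS letters the medians were -0.18 and -0.12. Over all kept genes with a window the medians with and without the NRF-1 core were -0.027 and -0.034. With and without ETS letters they were 0.026 and -0.040, the other way round than in the members. Whether the letters go with the differences was not tested. Of the printed genes COX18 and COX5B lay at -0.56 and -0.28, while SDHD and SDHAF2, with both motifs, lay at 0.12 and 0.21. The printed stretch of SDHA held GCGCAGGC 4 times and the NRF-1 core 0 times, and that variant was found in 11 of the 55 members (20.0%), in 13.3% of kept genes with a window and in 6.11% of all windows. The 9 letters AAGATGGCG of a YY1 site were found in 5 members (9.09%), in 4.81% of kept genes with a window and in 1.75% of all windows. TGATGCAA, the composite of ATF4 and C/EBP, was found in 0 of the 55 members, in 0.838% of kept genes with a window and in 0.866% of all windows, and those 75 kept genes had a median of 0.25. A match of letters does not show binding, which was not measured.

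Of the kept members 21 start head to head with another gene, at most 500 bases apart or overlapping by at most 100 by RefSeq starts, and for 16 the neighbour was kept. Members of these pairs had a median of -0.18, with 14 of 16 below 0. Their neighbours had a median of 0.02, with 7 of 16 below 0. Of all kept members 79.1% were below 0, and of all kept genes 55.9%. Both sides had the same sign in 7 of the 16 pairs, against 61.6% of all 539 head-to-head pairs of kept genes. Probe sets were joined to these pairs by symbol, and whether they lie at the paired genes was not checked.

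SCO1, with -0.40, starts 61 bases from ADPRM. ADPRM had 159.1 with DMSO, under the olfactory receptors' 95th percentile of 172.6, and 239.8 with G-TPP, so it was kept through the G-TPP array alone and the size of its difference cannot be read, though the pair is in the counts above. SDHA, 167 bases from CCDC127, had -0.62 where CCDC127 had 0.17 (574.7 and 644.3). At ATP5F1A the neighbour HAUS1 had 0.06 against -0.49. For BCS1L, 60 bases from ZNF142, both were low at -0.63 and -0.21. ATP5F1C had -0.11 and KIN, 184 bases away, had 0.37.

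Other pairs were even or turned round. ATP5MK had -0.30 by its brighter probe set and -0.21 by its other one, and PDCD11 had -0.30. The probe sets of ATP5MK are numbered far apart, and which of them reads the locus shared with PDCD11 was not checked. COA5 and UNC50 had -0.18 and -0.19. ATP5PB had -0.02 and WDR77 -0.31. COA8 had 0.38 and BAG5 had -0.11. ATP5PF shares its start region with GABPA, which encodes the DNA-binding part of GABP, and had -0.18 where GABPA had 0.19. The GABPA probe set is numbered far from that of ATP5PF, and whether it reads the shared locus was not checked.

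**Figure D5:**
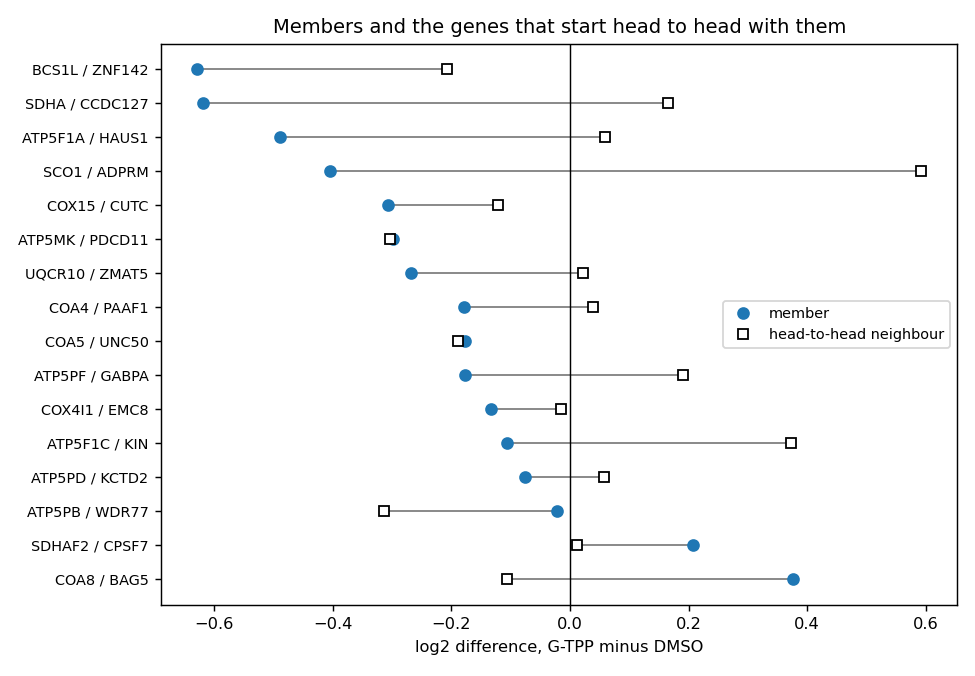
Log2 difference (G-TPP minus DMSO) of 16 kept members (filled circles) and of the kept gene that starts head to head with each (open squares), joined by a line. Members lie left of their neighbours in 11 of 16 pairs; the ADPRM square (0.59) rests on a DMSO signal of 159.1, under the olfactory receptors' 95th percentile, and its position is not a measured size.

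Further factors of complexes II to V whose symbols fall outside the rule had a low median. Their share past the mark on the lower side was near that of all kept genes. Of 29 asked for 25 were on the array and 24 kept. Their median was -0.12, against -0.15 for the kept members and -0.04 over all kept genes. Below 0 were 15, or 62.5% against 55.9% of all kept genes. Past the mark were 3 on the lower side, or 12.5% against 13.4% of all kept genes. On the higher side there were 0, where 16.4% of all kept genes passed. The 3 were OXA1L, the insertase for mitochondrially made subunits (5205 and 3793, 1.37-fold lower), FASTKD3 (544.7 and 398.0, 1.37-fold lower) and LRPPRC, which stabilises mitochondrial mRNA (3351 and 2455, 1.37-fold lower).

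Coenzyme Q synthesis showed no common direction, with a median of -0.05 over 12 kept genes and 2 past the mark each way. That is 16.7% each way, near the 13.4% of all kept genes on the lower side and 16.4% on the higher side. PDSS1, which begins the isoprenoid tail, was 1.42-fold lower (1985 and 1397) and COQ10A 1.33-fold lower (441.5 and 332.2), while COQ10B, its relative, was 1.69-fold higher (1020 and 1721). Nuclear regulators of respiratory genes had a median of 0.06 over 18 kept genes, with 4 past the mark each way. That is 22.2% each way, against 13.4% of all kept genes on the lower side and 16.4% on the higher side. Among coactivators PPRC1 was 2.01-fold lower (765.1 and 381.5) and PPARGC1A 1.76-fold higher (351.8 and 620.0). GABPB1, the GABP partner subunit, was 1.59-fold higher (806.8 and 1282), and NRF1 and GABPA both had 0.19.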

How the data were processed

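Total RNA of U251 cells was labelled with biotin for Affymetrix arrays, 1 array per condition. The authors' deposited table holds 1 intensity per probe set on a linear scale (6.61 to 18995 over both arrays). Per the submitters' processing notes the intensity values come from RMA in Affymetrix Expression Console 1.1.2, a method that corrects background and aligns arrays, so a change in total RNA per cell is not visible. The median probe set stood at 224.8 with DMSO and 215.5 with G-TPP. How RMA values were made linear and the build behind the probe sets were not given in the sources used here. Depth has no counterpart on arrays, and their number limits the precision.

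Probe sets were named through the platform annotation and RefSeq gene IDs (GRCh38.p14). Of 33297 probe sets, 19460 had 1 symbol, 1754 had several and 12083 were not listed. IDs of 19429 were in RefSeq. Each of 18417 genes was read from its brightest probe set by the mean of both arrays. A gene was kept if its brighter array reached 239.2, the median over all probe sets of their brighter value, which left 11091 genes. Log2 of the intensity was taken with no pseudocount. With 1 array per group no test exists, and genes were counted from a log2 difference of 0.32 and from 1.5-fold and 2-fold. Complex, role and step of assembly were assigned by hand, and the members and lists were chosen with earlier results of these data known. Intensities are given for members past 0.32, up to 4 per complex and role, c-ring genes, tissue isoforms and genes with disagreeing probe sets. Up to 3 genes per other list are named, besides markers and NRF1 and GABPA, named for their motifs.

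Promoter windows and gene starts came from RefSeq, GRCh38.p14. The motifs and the head-to-head neighbours were added after the data were seen. Alternatives were other brightness filters, lowess or median centring, quantile normalization, a pseudocount of 16, the mean over probe sets or genes, current symbols, and members without copies. Values were computed in Python 3.11.15 with pandas 2.3.3 and numpy 2.4.6, lowess with statsmodels 0.14.6, and plots with matplotlib 3.10.9.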

Additional observations from a re-analysis of the deposited data

Results flagged for a closer look

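A probe set that lists COX19, a copper factor of complex IV, together with ADAP1 was outside the comparison because it names no single gene. It gave 210.8 on the DMSO array, under the filter of 239.2, and 339.3 after G-TPP, 1.61-fold higher. The filter was passed through the G-TPP array alone, where it was brighter, so its size was not ranked against those of the kept members. It was picked out because it carried a signal in data that the gene comparison leaves out, and which of the listed genes the signal belongs to was not tested.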

How the results depend on the processing

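The median (in 1 alternative the mean) over the kept members was between -0.16 and -0.11 under the alternatives run, and those of subunits, assembly factors and complexes III, IV and V also stayed below 0. Complex II ranged from -0.10 to 0.02. Counts that moved by over 1.5 times were those of members past 0.32 on the higher side, 1 as reported, 0 at the 75th percentile filter and 2 with the median of all kept genes set to 0. The count past 0.32 on the lower side ranged from 11 to 16. Counts were not taken under the filter on the mean of both arrays, which left 65 members. No member past 0.32 changed sign under any of the 5 alternatives run on single genes, and of those nearer 0 sign changes numbered 4 under lowess, 4 under median centring and 2 under quantile normalization. Selection by current symbols gave the same 67 members. Leaving out a replicate was not possible with 1 array per group. No paired analysis was possible because each group has 1 array. Dim probe sets, UQCRB and ATP5MC3 among them, lie near the level of silent genes.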

Other observations

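Besides those already given, 4 probe sets list a symbol of these complexes together with other genes. One listing COX16, an assembly factor of complex IV, with its readthrough transcript had 4076 with DMSO and 3315 with G-TPP, 1.23-fold lower. One listing only SDHA pseudogenes (SDHAP1, SDHAP2 and SDHAP4) had 4254 and 3766, 1.13-fold lower. A pair listing the readthrough transcript of ATP5MF and PTCD1 was discordant, with 459.2 and 339.2 (1.35-fold lower) and with 356.1 and 360.1 (1.01-fold higher).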
